A study of Mus musculus with 9 samples.

Results

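The genes described here are 10 that mark the mesothelium, the epithelial sheet lining the body cavities, and its counterpart on the heart, the epicardium: Tcf21, Gata4, Gata5, Gata6, Wt1, Upk3b, Upk1b, Msln, Tbx18 and Scel. They are 10 of the 20018 named genes with a probe on the array, each represented by 1 probe found through its RefSeq annotation. They were selected on their log2 levels in these same 9 clones, so their levels are given as a description.

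The study profiled total RNA of mouse embryonic cells on 9 one-colour Agilent arrays, 1 array per clone. There were 3 triploid, 3 tetraploid and 3 diploid clones. Per the labels, all 9 clones share the p53-/- genotype, were grown in Eagle's minimum essential medium with fetal bovine serum and were not treated. The labels do not say whether the clones of a ploidy came from separate embryos or cultures, so p-values measure the spread between these samples, which may be technical. In 7 cases a clone is named as diploid clone 1 with a number added, and no p53 wild-type cells are among the samples. Between 44.8% and 50.9% of spots per array were well above background, and no spot was saturated. Across genes, triploid clones 2 and 3 correlated with each other at r = 0.985, and triploid clone 1 correlated with them at 0.948 and 0.956 and with diploid clone 2 at 0.964. Diploid clone 1 was hybridised on a slide of its own and the other 8 clones shared a second slide.

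Mesothelial and epicardial cells descend from the coelomic lining of the embryo and keep an epithelial surface while sharing many genes with fibroblasts. WT1, TCF21 and TBX18 are transcription factors used to mark the epicardium, and the GATA factors GATA4, GATA5 and GATA6 act in the heart, the coelomic epithelium and the endoderm. Mesothelin and uroplakin 3B are surface proteins used to mark mesothelium. Uroplakins are best known from the plaques of the bladder lining, and sciellin from the envelope of cornified skin cells.

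The mesenchymal marker list (Col1a1, Col1a2, Col3a1, Vim, Pdgfra, Pdgfrb, Thy1 and Fn1) was well above background in 7 to 8 of 8 genes in triploid clones, 7 to 8 in tetraploid clones and 8 in diploid clones. Of the 6 mesothelial markers with a probe (Msln, Upk3b, Wt1, Lrrn4, Krt19 and Bnc1), 2, 6 and 6 were well above background in triploid clones 1, 2 and 3, against 2, 2 and 3 in tetraploid clones 1, 2 and 3 and 6, 3 and 2 in diploid clones 1, 2 and 3. Of the 5 epicardial markers (Tcf21, Tbx18, Wt1, Aldh1a2 and Sema3d), the counts were 2, 5 and 5 in the triploid clones, 2, 2 and 3 in the tetraploid clones and 4, 3 and 2 in the diploid clones. Msln, Upk3b and Wt1 of the mesothelial markers and Tcf21, Tbx18 and Wt1 of the epicardial ones are among the 10 genes, so these counts are no independent check of the name. Of the other markers, Lrrn4 and Bnc1 were well above background in triploid clones 2 and 3 and diploid clone 1, Aldh1a2 in those clones and in tetraploid clone 3 and diploid clone 2, Sema3d in all clones but diploid clone 2, and Krt19 in all 9. The log2 of the summed signal of the mesothelial markers was 2.15, 7.19 and 6.61 in triploid clones 1, 2 and 3, against 5.55, 6.58 and 5.69 in tetraploid clones and 5.52, 3.82 and 5.17 in diploid clones 1, 2 and 3. That of the epicardial markers was 1.05, 6.20 and 5.82 in triploid clones, against 1.92, 0.88 and 1.81 in tetraploid clones and 1.71, 1.19 and 1.25 in diploid clones 1, 2 and 3. The summed epicardial signal of triploid clones 2 and 3 lay above that of every other clone, whereas the mesothelial sums of those clones and of tetraploid clone 2 lay close together. Both sums include the genes shared with the 10, so they are no independent check either. Of the other epicardial markers, Aldh1a2 was at -2.50 and -1.94 in triploid clones 2 and 3 and highest in diploid clone 2, at -1.25. Sema3d was at 0.59 and 0.13 in triploid clones 2 and 3 and highest in tetraploid clone 1, at 1.48.

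Markers of other cell types were read in the same way. Of 6 endothelial, 5 blood and 5 pluripotent cell markers with a probe, 2 to 3 of each were well above background in every clone. Pecam1 and Kdr, Csf1r and Itgam, and Nanog and Utf1 of these lists were well above background on all 9 arrays. A marker well above background therefore does not by itself name a cell type. Of 6 epithelial markers, 1, 3 and 1 were well above background in triploid clones 1, 2 and 3, against 1, 0 and 1 in tetraploid clones and 4, 2 and 2 in diploid clones 1, 2 and 3. Epcam and Cdh1 were dark on all 9 arrays, while Krt18 and Esrp1 were each well above background on 6. Of 4 urothelial markers, 1 was well above background in every clone except diploid clone 2, which had 2. The bladder plaque genes Upk2 and Upk3a were dark on all arrays, and Upk1a was well above background on all 9. Of 6 endoderm markers, 1, 3 and 3 were well above background in triploid clones 1, 2 and 3, against 2, 0 and 2 in tetraploid clones and 1, 2 and 2 in diploid clones 1, 2 and 3. Of these markers Afp was at -1.22, -0.73 and -1.88 and Amn at -3.72, -3.64 and -2.84 in triploid clones 1, 2 and 3. The summed log2 signal of the endoderm markers was -0.67, 3.75 and 3.20 in triploid clones, against -1.34, -2.05 and -0.70 in tetraploid clones and -1.49, -0.58 and -0.81 in diploid clones 1, 2 and 3. Foxa2 was the bright gene in triploid clones 2 and 3, so the sums there rest mainly on 1 gene, and Sox17, Hnf4a and Ttr were dark on all arrays. Of 5 neural markers 3 were well above background in every clone, with Elavl3 and Nefl dark on all arrays. Their summed log2 signal was 1.57, 3.69 and 2.95 in triploid clones, against 1.81, 1.04 and 2.39 in tetraploid clones and 2.00, 1.77 and 1.91 in diploid clones 1, 2 and 3. In triploid clones 2 and 3 the neural sums rest mainly on Tubb3, at 3.63 and 2.84. Map2 went the other way, at -2.35 and -1.63 there, against 1.43, 0.32 and 1.90 in tetraploid clones 1, 2 and 3. In diploid clones 1, 2 and 3 Map2 was at 0.20, -3.22 and 1.59. Summed cardiomyocyte markers were at -1.07, 0.94 and 2.81 in triploid clones, against -1.19, 0.41 and -1.66 in tetraploid clones and 0.47, 1.62 and -0.23 in diploid clones 1, 2 and 3. In triploid clones 2 and 3 these sums rest mainly on Tnnt2, at 0.59 and 2.73, and Actn2 and Ryr2 were dark on all arrays. The part of other cell types in the results below was not tested. In bulk RNA of a clone, fewer cells of a type and less RNA per cell cannot be told apart.

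The stretches of 250 bases before the transcription start of Tcf21, Upk3b, Scel and Tbx18 are shown because the first 3 genes were bright in the same 2 clones while Tbx18 was measured in all 9. They are RefSeq sequences of build GRCm38.p6, printed 5′ to 3′ on the gene's strand. Capitals mark GATAA, the core that GATA factors recognise, read on either strand, and CATTCC, the core of TEAD factors, likewise on either strand.
Tcf21, chr10:22820144-22820393, minus strand: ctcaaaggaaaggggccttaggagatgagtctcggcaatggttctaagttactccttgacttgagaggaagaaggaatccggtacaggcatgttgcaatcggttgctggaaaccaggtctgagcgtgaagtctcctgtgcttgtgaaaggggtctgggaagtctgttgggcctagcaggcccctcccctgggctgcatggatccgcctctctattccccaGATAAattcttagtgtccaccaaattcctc
Upk3b, chr5:136038246-136038495, plus strand: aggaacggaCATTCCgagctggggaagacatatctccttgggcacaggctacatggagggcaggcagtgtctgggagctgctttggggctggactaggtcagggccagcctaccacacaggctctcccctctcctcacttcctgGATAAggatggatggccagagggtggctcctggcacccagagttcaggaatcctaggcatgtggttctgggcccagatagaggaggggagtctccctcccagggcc
Scel, chr14:103513091-103513340, plus strand: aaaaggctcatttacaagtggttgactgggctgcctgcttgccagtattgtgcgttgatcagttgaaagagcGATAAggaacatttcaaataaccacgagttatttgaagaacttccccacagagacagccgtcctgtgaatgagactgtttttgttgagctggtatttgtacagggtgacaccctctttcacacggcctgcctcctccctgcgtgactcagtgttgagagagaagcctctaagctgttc
Tbx18, chr9:87731261-87731510, minus strand: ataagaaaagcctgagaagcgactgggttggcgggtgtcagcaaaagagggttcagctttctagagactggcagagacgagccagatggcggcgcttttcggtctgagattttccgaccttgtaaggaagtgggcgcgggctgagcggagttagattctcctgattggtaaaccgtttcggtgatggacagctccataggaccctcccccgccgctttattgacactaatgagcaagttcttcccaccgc
Of the 10 genes, 5 were matched to a promoter: these 4 and Gata5. A GATAA match began 30 bases before the start of Tcf21, 106 before that of Upk3b and 178 before that of Scel, and no match lay in the windows of Tbx18 and Gata5. Among 32851 mouse promoters of the same length, 22.6% hold GATAA. The TEAD core CATTCC matched in the window of Upk3b and in none of the other 4, and 12.6% of promoters hold it. The T-box core GGTGTG matched in none of the 5 windows, against 16.3% of all promoters. The WT1 site GTGGGAG matched in the Gata5 window alone, against 8.25% of all promoters, and the E-box CANNTG matched in 4 of the 5, all but Tcf21, against 66.2%. CpG dinucleotides numbered 22 in the window of Gata5 and 15 in that of Tbx18, the 2 of these 5 genes that were measured on all 9 arrays. They numbered 5 in Tcf21, 2 in Upk3b and 6 in Scel, with a median of 6 over all promoters. Gata6 and Msln were measured on all 9 arrays too but were not matched to a promoter. A relation of CpG number to detection was not tested. A match is a description of the letters and not of binding.

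Levels are given as log2 signal relative to the 75th percentile of each array, so that 0 is that percentile and 1 unit is a doubling. A probe called not well above background has only an upper bound, and its values have no order among themselves. Between genes these levels cannot be ranked, because each gene has a different probe.

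Wt1 encodes the zinc-finger factor that marks mesothelial and epicardial progenitors. Its level was -5.71, 5.85 and 5.39 in triploid clones 1, 2 and 3, against -5.76, -5.52 and -6.62 in tetraploid clones 1, 2 and 3 and -1.32, -1.53 and -6.25 in diploid clones 1, 2 and 3. The probe was well above background in triploid clones 2 and 3 and in diploid clones 1 and 2, and dark in the other 5 clones. Triploid clone 3, the lower of the bright triploid pair, stood 105-fold above diploid clone 1, the highest of the remaining clones. The triploid group held the highest values and a dark clone, and it overlapped both other groups.

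Tcf21, the basic helix-loop-helix factor of epicardium and cardiac fibroblasts, was measured at 3.32 and 3.37 in triploid clones 2 and 3. It was not well above background in any other clone, with -3.55 in triploid clone 1, against -5.48, -4.35 and -5.58 in tetraploid clones and -3.57, -4.09 and -4.43 in diploid clones 1, 2 and 3. Set against the lowest signals that were well above background on the dark arrays, triploid clone 2 was at least 103-fold above every dark clone.

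Tbx18, the T-box factor of epicardium, was well above background in all 9 clones. Its level was 0.84, 2.15 and 1.57 in triploid clones 1, 2 and 3, against -0.12, 0.28 and 1.18 in tetraploid clones 1, 2 and 3 and 0.94, 0.51 and 0.46 in diploid clones 1, 2 and 3. Triploid clones 2 and 3 were again highest, but triploid clone 1 lay within the range of the diploid clones and the whole spread over 9 clones was 2.28 log2 units.

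The 3 GATA factors followed 3 different patterns. Gata4, a regulator of heart and coelomic epithelium, was at 1.77 and 2.08 in triploid clones 2 and 3 and dark in the rest, with -3.46 in triploid clone 1, against -4.00, -3.74 and -5.39 in tetraploid clones and -3.80, -3.95 and -4.67 in diploid clones 1, 2 and 3. Triploid clone 2 was at least 35.0-fold above every dark clone. Gata6, which acts in endoderm and heart, was well above background everywhere, at -1.65, 3.91 and 3.34 in triploid clones 1, 2 and 3, against -0.40, -1.77 and 1.29 in tetraploid clones 1, 2 and 3 and 0.04, -0.10 and 0.31 in diploid clones 1, 2 and 3. Triploid clone 3 stood 4.13-fold above tetraploid clone 3, while triploid clone 1 was lower than every diploid clone. Gata5, the relative known from heart and gut development, was at 1.64, 1.34 and 1.01 in triploid clones, against 1.60, 1.67 and 1.40 in tetraploid clones and 1.36, 0.97 and 1.29 in diploid clones 1, 2 and 3. Its 9 values lay within 0.69 log2 units, with the triploid clones spread over the range of the other groups.

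**Figure D1:**
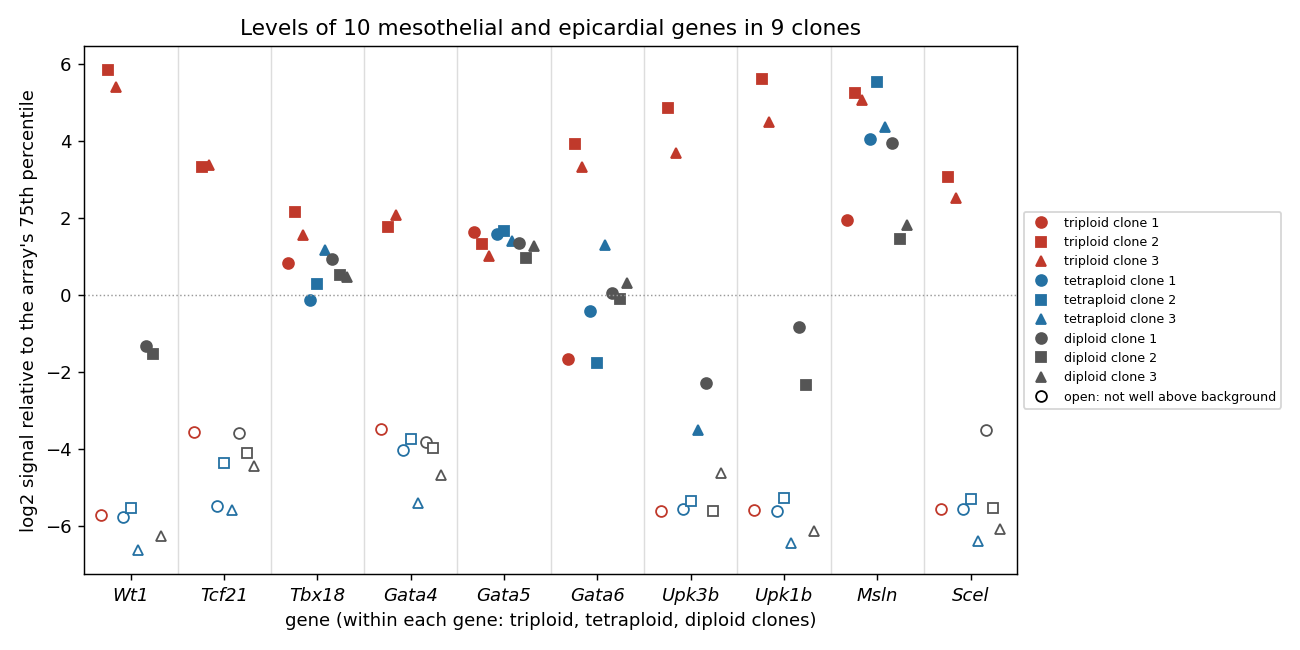
Level of each of the 10 genes in each clone, on the vertical axis as log2 signal relative to the array's 75th percentile, with triploid clones left, tetraploid clones in the middle and diploid clones right within each gene. Filled symbols are probes well above background and open symbols are not. Triploid clones 2 and 3 stand apart from the other clones in Wt1, Tcf21, Gata4, Gata6, Upk3b, Upk1b and Scel, and Gata5 stays within 0.69 log2 units in all 9.

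The surface proteins and sciellin came next. Upk3b, the uroplakin used as a mesothelial marker, was at -5.61, 4.86 and 3.68 in triploid clones 1, 2 and 3, against -5.56, -5.34 and -3.50 in tetraploid clones 1, 2 and 3 and -2.27, -5.61 and -4.61 in diploid clones 1, 2 and 3. It was well above background in triploid clones 2 and 3, tetraploid clone 3 and diploid clone 1, and triploid clone 3 stood 61.8-fold above diploid clone 1. Upk1b, a tetraspanin that partners uroplakin 3 proteins, was at -5.57, 5.60 and 4.51 in triploid clones 1, 2 and 3, against -5.61, -5.26 and -6.43 in tetraploid clones and -0.82, -2.32 and -6.12 in diploid clones 1, 2 and 3. It was well above background in triploid clones 2 and 3 and diploid clones 1 and 2, as Wt1 was, and triploid clone 3 stood 40.1-fold above diploid clone 1. The Upk1b probe is printed 10 times on each array, and its spots had an SD of 0.05 in triploid clone 2, 0.06 in triploid clone 3, 0.06 in diploid clone 1 and 0.25 in diploid clone 2. On the 5 arrays where it was dark the SD lay between 0.13 and 0.74.

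Msln, mesothelin, was well above background in all 9 clones. Its level was 1.95, 5.25 and 5.05 in triploid clones 1, 2 and 3, against 4.04, 5.54 and 4.37 in tetraploid clones 1, 2 and 3 and 3.94, 1.45 and 1.83 in diploid clones 1, 2 and 3. Unlike Wt1, Upk1b and Scel it was bright in every tetraploid clone. Its 9 values divided at a gap of 2.00 log2 units, with triploid clone 1 and diploid clones 2 and 3 below it and the other 6 clones above. Scel, sciellin, was at 3.07 and 2.51 in triploid clones 2 and 3 and dark elsewhere, with -5.54 in triploid clone 1, against -5.54, -5.30 and -6.39 in tetraploid clones and -3.51, -5.53 and -6.06 in diploid clones 1, 2 and 3. Triploid clone 3 was at least 58.7-fold above every dark clone.

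For each gene the 9 values were sorted and the widest step between neighbouring values was found, with dark arrays set to the lowest signal well above background on their array or to the probe's own signal where that was higher. In 7 of the 10 genes (Tcf21, Gata4, Gata6, Wt1, Upk3b, Upk1b and Scel) the widest step lay just below triploid clones 2 and 3. The step measured 6.71 in Wt1, 6.68 in Tcf21, 5.95 in Upk3b, 5.88 in Scel, 5.32 in Upk1b, 5.13 in Gata4 and 2.05 in Gata6. Of 14999 named genes above background on at least 1 array, 566 (3.77%) divided in the same place and 182 (1.21%) did so with a step over 1. The genes were chosen with these levels in view, so their count is not set against that share. Tbx18 had its widest step of 0.58 below triploid clone 2 alone, and Gata5 one of 0.27 that followed no ploidy.

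The 7 genes lie apart in the genome. The 10 genes sit on 8 chromosomes: Wt1 and Gata5 are both on chromosome 2 and Gata4 and Scel both on chromosome 14. Of the 40 flanking genes with a probe, the nearest 2 on each side of each, 32 were above background on at least 1 array and 2 had their widest step below triploid clones 2 and 3. One was Neil2, a DNA glycosylase gene next to Gata4, which was at -3.89, -2.03 and -1.91 in triploid clones 1, 2 and 3 and well above background in none but triploid clones 2 and 3. The other was B4galt4, a galactosyltransferase gene next to Upk1b, at 0.62, 3.51 and 3.35 in triploid clones 1, 2 and 3, against 1.12, 0.67 and 1.99 in tetraploid clones and 0.94, 0.80 and 0.83 in diploid clones 1, 2 and 3. The antisense transcript Wt1os beside Wt1 was well above background in triploid clone 2 alone, at -2.44. Upk3bl, the gene next to Upk3b that encodes a related protein, went the other way, with -3.58, -5.11 and -5.16 in triploid clones 1, 2 and 3, none well above background, against -1.60, -1.39 and -1.61 in tetraploid clones 1, 2 and 3 and -2.27, -3.24 and -1.12 in diploid clones 1, 2 and 3. These neighbours were picked out after their values were seen.

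The question the design puts to these genes is whether their level differs between ploidies. With limma fitted over 21797 features and Benjamini-Hochberg adjusted p under 0.05 as the threshold, none of the genes differed between triploid and diploid clones, between tetraploid and diploid clones or between triploid and tetraploid clones. Only 4 of the 10 (Gata5, Gata6, Msln and Tbx18) entered that fit, which drops any probe that is dim on some array in every ploidy group. The share of features past the threshold was 1.84% in triploid against diploid clones, 0.0734% in tetraploid against diploid clones and 2.7% in triploid against tetraploid clones. At an unadjusted p under 0.05 the counts among the 4 genes were 0, 1 and 1 in these 3 comparisons. The share of all features under that cut was not counted, so these counts have no background to be read against. The comparisons share groups, so their values are not independent of one another.

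The within-group spread was wide where triploid clone 1 parted from the other triploid clones. Gata6 averaged 1.87 ± 3.06 in triploid clones and 0.08 ± 0.20 in diploid clones (SD, n = 3 each), a difference of 1.78 ± 1.32 (SE) with limma adjusted p = 0.480. Against the tetraploid mean of -0.29 ± 1.53 (SD, n = 3) the Gata6 difference was 2.16 ± 1.32 with adjusted p = 0.381. Tbx18 averaged 1.52 ± 0.66 in triploid clones, 0.45 ± 0.67 in tetraploid clones and 0.64 ± 0.26 in diploid clones (SD, n = 3 each). Its triploid level exceeded the diploid one by 0.89 ± 0.41 with adjusted p = 0.255 and the tetraploid one by 1.07 ± 0.41 with adjusted p = 0.181. Msln averaged 4.08 ± 1.85 in triploid clones, 4.65 ± 0.79 in tetraploid clones and 2.41 ± 1.34 in diploid clones (SD, n = 3 each). The tetraploid mean of Msln exceeded the diploid one by 2.24 ± 0.94, with an unadjusted p of 0.0402 and adjusted p = 0.312 from limma over all features. Gata5 averaged 1.33 ± 0.32, 1.56 ± 0.14 and 1.21 ± 0.20 in triploid, tetraploid and diploid clones (SD, n = 3 each). Its tetraploid level exceeded the diploid one by 0.35 ± 0.23 with adjusted p = 0.511.

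For genes dark in every clone of a group, the dark arrays of that group were set to their floor and a fold was taken over it. Triploid clone 1 was dark too and enters at its measured signal, which is only an upper bound there, so the triploid mean rests on 2 of 3 arrays that measured these genes and the fold of the group means is not a strict bound. Computed so, the triploid mean was 27.0-fold the diploid one for Tcf21, 15.0-fold for Gata4 and 13.0-fold for Scel. Over tetraploid clones the same fold was 50.6 for Wt1, 40.2 for Upk1b, 29.2 for Tcf21, 15.4 for Gata4 and 14.3 for Scel. No gene passed the test when the filter on dim probes was dropped and all 10 were fitted: adjusted p ranged between 0.238 for Gata4 and 0.965 for Gata5 in triploid against diploid clones. That fit called 0.209% of features between triploid and diploid clones, 0% between tetraploid and diploid clones and 0.402% between triploid and tetraploid clones. At an unadjusted p under 0.05 that fit had 4, 1 and 7 of the 10 genes in the same order of comparisons. No share of all features was counted at that cut, so the called shares above are not their background. The genes were also selected on these levels.

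Each clone was left out in turn, and 1 of the 9 omissions changed the calls among these genes. Without triploid clone 1, 7 of 10 genes rose in triploid against diploid clones, where 3.38% of all features were called higher, and 7 of 10 rose in triploid against tetraploid clones, where 3.4% were called higher. The 7 were in both cases Tcf21, Gata4, Gata6, Wt1, Upk3b, Upk1b and Scel. All but Gata6, which was in the fit of all 9 clones too, pass the filter there through the 2 triploid clones in which they are bright, so these counts support nothing beyond the levels given above. Gata6, measured on every array, differed from diploid clones by 3.54 ± 0.73 (SE; limma adjusted p = 0.0268). With all 9 clones its limma adjusted p was 0.480. Gata6 too was selected on these levels, and the omitted clone was the triploid one in which it was at -1.65. Its call therefore supports nothing beyond the levels either. With both remaining triploid arrays measured, the triploid mean was at least 132-fold above the diploid one for Tcf21, 51.9-fold for Gata4 and 89.1-fold for Scel. Above the tetraploid mean it was at least 694-fold for Wt1, 469-fold for Upk1b, 143-fold for Tcf21, 97.7-fold for Scel and 53.5-fold for Gata4. Msln at 2.75 ± 0.73 had an adjusted p of 0.0598, and Tbx18 at 1.23 ± 0.40 one of 0.104. Gata5 differed by -0.03 ± 0.24. Between tetraploid and diploid clones 0 of 10 genes were called without triploid clone 1, against 0.102% of features. An unadjusted p under 0.05 was found for 4 of them, with no share of all features counted at that cut. With no filter on dim probes as well, 6 of 10 genes rose against diploid clones (0.636% of features called higher) and 7 of 10 against tetraploid clones (0.79%), and 0 of 10 were called between tetraploid and diploid clones (0%); Gata6 was the gene lost against diploid clones, at an adjusted p of 0.0618.

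**Figure D2:**
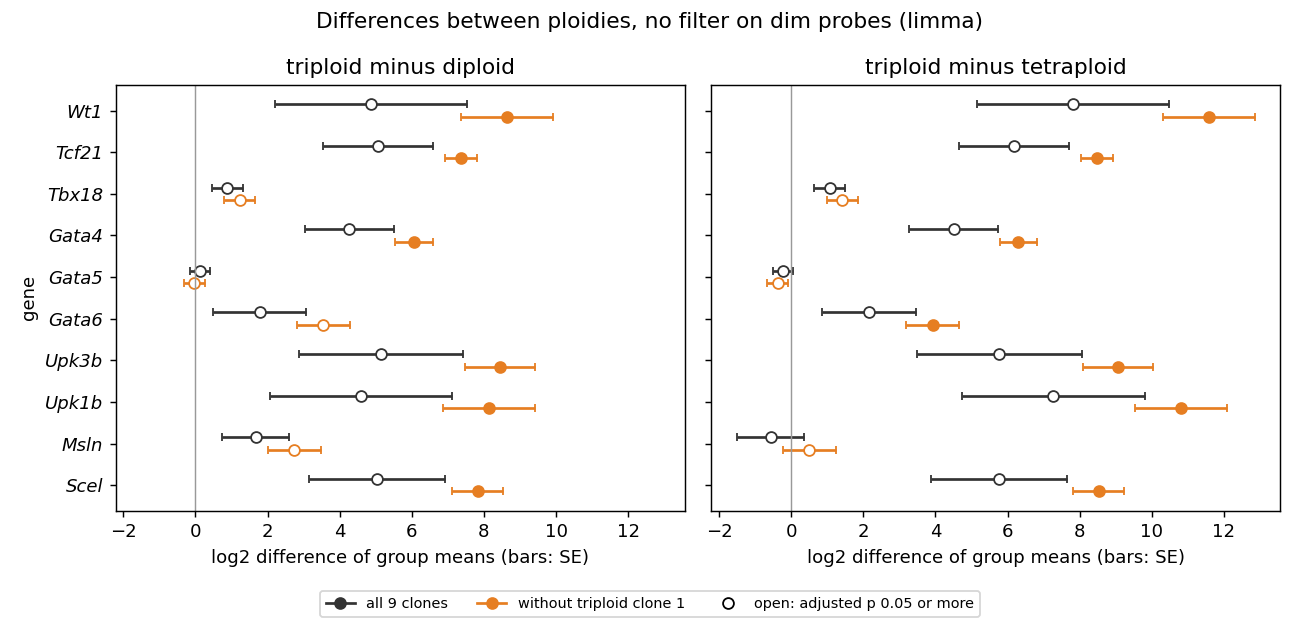
Fitted log2 difference of each gene between triploid and diploid clones (left panel) and between triploid and tetraploid clones (right panel), with bars for the SE from limma fits without a filter on dim probes. Filled circles have an adjusted p under 0.05. With all 9 clones no gene is filled; without triploid clone 1, 6 genes are filled on the left and 7 on the right. Dark probes enter at their measured signal, so the values of Tcf21, Gata4, Wt1, Upk3b, Upk1b and Scel are neither levels nor bounds.

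Genes with the most similar profiles were found for the 7 of the 10 that were well above background on at least 3 arrays, as the smallest root mean square (RMS) difference of mean-centred log2 levels over the 9 clones, among named genes kept by the filter. Dark arrays entered at their measured signal, and the order was taken again with dark arrays at their floor, an alternative chosen after seeing the data. It kept the nearest 3 of Gata5, Gata6 and Tbx18 and changed those of Wt1, Upk3b, Upk1b and Msln. At measured signals Ptgis, which encodes prostacyclin synthase, came first for both Wt1 (RMS 1.35) and Upk1b (1.45), but it ranked 7 for Wt1 (1.67) and 12 for Upk1b (1.81) with dark arrays at the floor. Its level was -3.98, 7.15 and 6.49 in triploid clones 1, 2 and 3, against -4.59, -3.93 and -2.89 in tetraploid clones and 2.20, 3.63 and -3.35 in diploid clones 1, 2 and 3. It was thus high in the same 4 clones in which Wt1 and Upk1b were well above background. Aldh1a1, a retinaldehyde dehydrogenase that makes retinoic acid, came first for Upk3b (1.16) and was among the nearest 3 of Wt1 (1.87) and Upk1b (1.66) at measured signals, at -2.17, 6.94 and 7.05 in triploid clones 1, 2 and 3, against -0.06, -3.50 and -0.72 in tetraploid clones and 1.37, -0.43 and -0.83 in diploid clones 1, 2 and 3. The third of Wt1 was F11r (1.92), which encodes a tight junction protein, and the third of Upk1b was Arhgap45 (1.71). Next to Upk3b were Lsr (1.55), a receptor at tricellular junctions, and Folr1 (1.59), the folate receptor. With dark arrays at the floor, Arhgap45 (1.16), Folr1 (1.16) and F11r came first for Wt1, Folr1 (1.00), Arhgap45 (1.05) and Lsr (1.14) for Upk1b, and Lsr (0.77), Smpd3 (0.84) and Arhgap45 (0.98) for Upk3b, while Aldh1a1 ranked 4, 4 and 5 for these genes.

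Gata6 was most like Grb14 (0.58), an adaptor of the insulin receptor, Sh3bp5 (0.71) and Cldn15 (0.76), a claudin. Msln was most like Daam2 (0.54), a formin, Celsr1 (0.56), a planar polarity cadherin, and Ptx3 (0.74), a pentraxin; with dark arrays at the floor Bmp4 (0.75), a growth factor, took the place of Celsr1, which ranked 21. Ptx3 was at 4.26, 6.14 and 6.68 in triploid clones 1, 2 and 3, against 6.07, 6.34 and 6.50 in tetraploid clones and 3.77, 2.68 and 3.47 in diploid clones 1, 2 and 3, so like Msln it was high in the tetraploid clones. Tbx18 was most like Lrrc1 (0.22), Tiam1 (0.22), an activator of Rac, and Ptprf (0.26), a receptor phosphatase. The nearest of Gata5 were Grb2 (0.08), Macroh2a2 (0.10) and Galns (0.10), genes with little variation over the 9 clones.

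**Figure D3:**
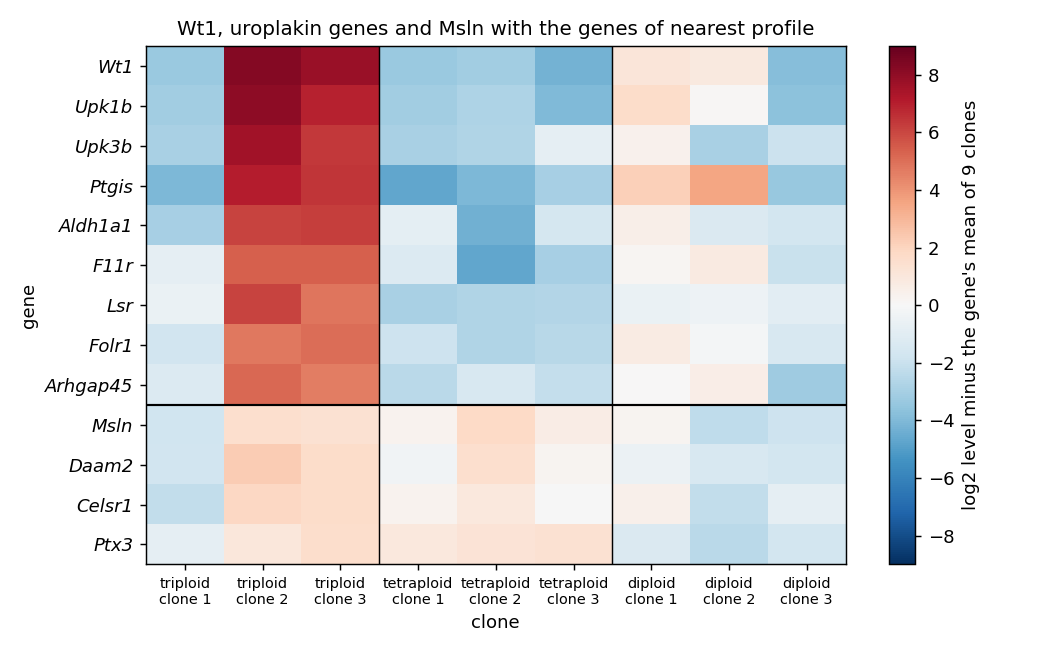
Log2 level of each gene minus its mean over the 9 clones, in colour, with triploid, tetraploid and diploid clones in columns and dark arrays at their measured signal. Rows above the line are Wt1, Upk1b and Upk3b with their nearest genes at measured signals, highest in triploid clones 2 and 3, and rows below it are Msln with its nearest genes, which were low in triploid clone 1 and diploid clones 2 and 3.

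The other 22 mesothelial genes listed beside the 10 (Lrrn4, Bnc1, keratins, Calb2, Pdpn and others) had a probe in 21 cases, and 13 entered the fit. A gene was counted as high in a clone when it was well above background there and over 1 log2 unit above its median of the 9 clones. In triploid clones 1, 2 and 3, 2, 10 and 10 of the 21 were high, against 1, 1 and 2 in tetraploid clones and 8, 3 and 2 in diploid clones 1, 2 and 3. Of all 19997 named genes with a value on every array, 3.85%, 5.84% and 5.15% were high in the triploid clones, 3.28%, 2.96% and 7.34% in the tetraploid clones and 3.14%, 4.29% and 3.73% in the diploid clones. The list was chosen with earlier results of these data known, so its counts are no independent check. All named genes include many that were dark on every array and could not count as high. Lrrn4, a mesothelial membrane protein, was at -5.51, 3.88 and 2.39 in triploid clones 1, 2 and 3, and Bnc1, a zinc-finger factor of mesothelium, at -4.32, 2.50 and 2.01. Both were dark in all tetraploid clones and in diploid clones 2 and 3, and in diploid clone 1 they were at -2.70 and -3.35.

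**Figure D4:**
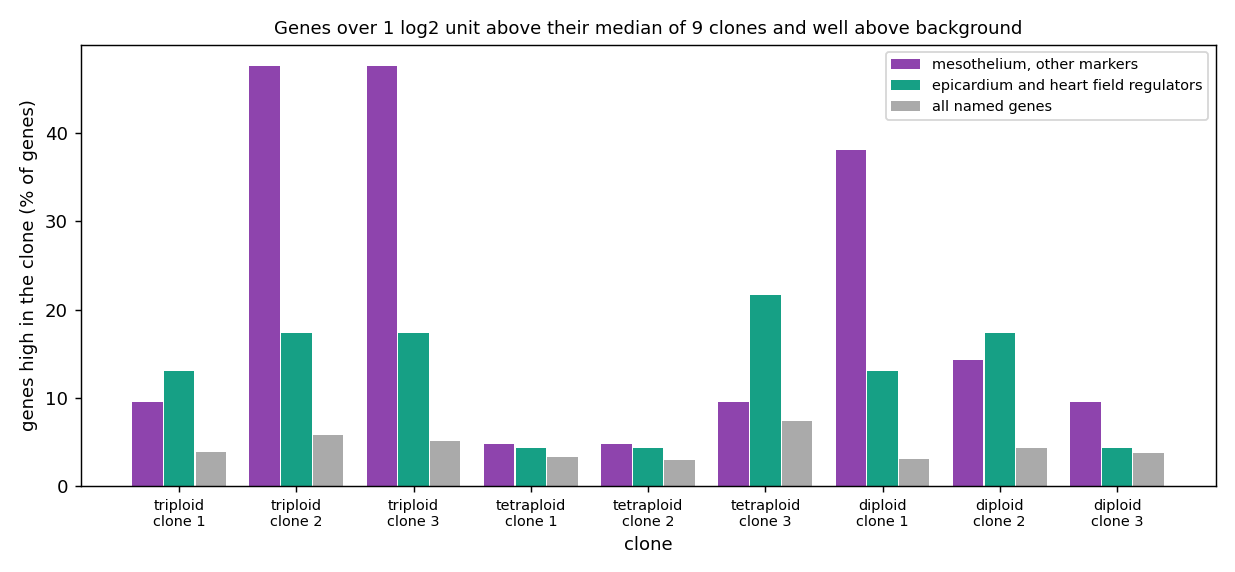
Percentage of the genes of a list that were high in each clone, for 21 other mesothelial genes, 23 epicardial and heart field regulators and all 19997 named genes, with triploid clones left, tetraploid clones in the middle and diploid clones right. Mesothelial bars stand at 10 of 21 genes in triploid clones 2 and 3 and at 8 of 21 in diploid clone 1. Both lists were chosen with earlier results of these data known.

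In the fit over ploidies, 2 of the 13 mesothelial genes were called between triploid and diploid clones, both lower: Krt19 by 5.08 ± 0.54 log2 units (SE) with limma adjusted p = 0.00459, and Krt7 by 2.19 ± 0.43 with adjusted p = 0.0444. Both are keratins of simple epithelia and mesothelium. Krt19 stayed past the threshold in all 9 fits that leave a clone out, while Krt7 did so in 2 of 9, without triploid clone 1 or diploid clone 2. The median difference of the list was 1.58, against 0.10 over all features. Between triploid and tetraploid clones Krt19 was lower by 5.78 ± 0.54 (adjusted p = 0.00288), and Upk3bl, dark in all triploid clones, was at least 4.56-fold lower (adjusted p = 0.0291; called in 4 of 9 fits that leave a clone out). Upk3bl passed the filter only through the tetraploid clones, where it was high, so its call supports nothing beyond its levels. The list's median between triploid and tetraploid clones was 0.71, against 0.17 over all features. No gene of the list was called between tetraploid and diploid clones, where the median was -0.02 and that of all features -0.01. Krt19 averaged -0.62 ± 0.97 in triploid clones, 5.16 ± 0.39 in tetraploid clones and 4.46 ± 0.86 in diploid clones (SD, n = 3 each). Triploid clones 2 and 3, in which Wt1 and Upk3b were highest, had Krt19 at 0.48 and -1.31. That was well above background but lower than in any tetraploid or diploid clone.

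Of 23 epicardial and heart field regulators, 13 were tested. Between triploid and diploid clones Foxf2, a forkhead factor of mesenchyme, rose by 1.27 ± 0.23 (adjusted p = 0.0357), and Snai2, a factor of epithelial-mesenchymal transition, fell by 1.65 ± 0.31 (adjusted p = 0.0420). Foxf2 was called in 3 and Snai2 in 2 of the 9 fits that leave a clone out. Between triploid and tetraploid clones Snai2 fell by 2.24 ± 0.31 (adjusted p = 0.0116) and was called in all 9 such fits. The list's median difference was 0.58 in triploid against diploid clones and -0.87 in triploid against tetraploid clones, against 0.10 and 0.17 over all features. In triploid clones 1, 2 and 3, 3, 4 and 4 of the 23 were high, against 1, 1 and 5 in tetraploid clones and 3, 4 and 1 in diploid clones, so this list did not single out triploid clones 2 and 3.

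Among the families to which the genes belong, some had no tested gene called in any of the 3 comparisons. These were the GATA family with its cofactors and cardiac targets (11 of 15 tested) and the coelomic and urogenital regulators around Wt1 (7 of 16). The others were the basic helix-loop-helix relatives of Tcf21 (9 of 12) and the endoderm genes under GATA control (7 of 18). Over the whole fit the called shares were 1.84% (triploid against diploid), 0.0734% (tetraploid against diploid) and 2.7% (triploid against tetraploid). Lists this short can hold no call at such shares, so this does not set them apart. The filter also left out Foxa2, Tcf23 and Podxl of these lists, which were well above background in triploid clones 2 and 3. Of the T-box family 6 of 15 were tested, and Tbx15, a factor of limb and skin mesenchyme, fell by 2.56 ± 0.44 in triploid against diploid clones (adjusted p = 0.0296; called in 5 of 9 fits that leave a clone out) and by 3.49 ± 0.44 against tetraploid clones (adjusted p = 0.00739; 9 of 9). Of the uroplakin and urothelial genes 5 of 14 were tested, and between triploid and tetraploid clones Upk3bl and Pparg, a nuclear receptor of fat cells and urothelium, were lower, Pparg by 3.29 ± 0.56 (adjusted p = 0.0233; 6 of 9). Of the cornified envelope partners of Scel 6 of 12 were tested, and Evpl, envoplakin, rose in triploid clones, by 1.37 ± 0.27 against diploid clones (adjusted p = 0.0439; 2 of 9) and by 1.41 ± 0.27 against tetraploid clones (adjusted p = 0.0319; 5 of 9). Evpl passed the filter only through the triploid clones and Upk3bl only through the tetraploid clones. In each case that is the group where the gene was high, so these calls support nothing beyond the levels.

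Of 15 retinoic acid genes 12 were tested, and 2 were lower in triploid than in diploid and in tetraploid clones. Cyp26b1, which breaks down retinoic acid, fell by 5.40 ± 0.55 against diploid clones (adjusted p = 0.00412) and by 5.72 ± 0.55 against tetraploid clones (adjusted p = 0.00288), in each case in all 9 fits that leave a clone out. Aldh1a3, a retinaldehyde dehydrogenase, was dark in all triploid clones and at least 3.26-fold lower than in diploid clones (adjusted p = 0.0322; 4 of 9) and was also lower than in tetraploid clones, 2 of which measured it (adjusted p = 0.0457; 3 of 9). Aldh1a3 passed the filter only through the diploid clones, where it was high, so its calls support nothing beyond its levels. The list's median was -0.77 against diploid and -0.74 against tetraploid clones. Cyp26b1 and Krt19 were low in all 3 triploid clones, whereas Wt1, Tcf21, Gata4 and Scel separated triploid clone 1 from the other triploid clones.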

How the data were processed

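Total RNA of 9 clones (3 per ploidy) was measured on one-colour Agilent mouse arrays; per the file headers the scanner software was Feature Extraction 10.7.3.1 and the array design build mm9. The deposited files hold the processed signal intensity of each spot, background-subtracted by that software. From it, log2 values were averaged over the unflagged spots of a probe and centred on each array's 75th percentile. A probe was well above background where most of its spots were. The deposited value table, an alternative, holds log2 values relative to diploid clone 1, per the labels and the values; column medians were 0.18, 0.02 and 0.06 in triploid clones, 0.15, 0.38 and -0.57 in tetraploid clones and 0, 0.18 and -0.23 in diploid clones, and differences between arrays equalled those of the scanner files within 0.001 for 99.6% of 55681 probes. The median signal intensity columns in the deposited files were used for the normexp alternative (offset 50), since the files hold no mean signal.

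Probes were named through RefSeq accessions (GRCm38.p6 table). The brightest probe represented a gene. Kept were 21797 features (12434 of them named genes) for which every array of some ploidy group was well above background. The fit used limma 3.58.1 (R 4.3.3), 1 mean per ploidy and Benjamini-Hochberg adjustment; the script was tested on simulated data. Folds over a group dark on all its arrays set each dark probe there to the lowest signal well above background on its array, or to its own where higher; they are bounds where the brighter group was measured on all its arrays. The number of arrays limits the precision. The 10 genes, the 10 lists and the markers were chosen with earlier results of these data known. Named genes are all 10 genes, every called gene of a list, at most 4 per list, and the 3 nearest profiles. Also named are flanking genes, cell type markers and genes said to be picked out after their values were seen. Clone numbers were not treated as pairs. Alternatives covered the scaling, normexp, the deposited table, the dim-probe filter (dropped, stricter, or dark spots at a floor), the slide, clone number as a block, the variance trend, the pair of groups alone, the probe rule and each clone left out, and, for the nearest profiles, dark arrays at their floor. Python 3.11.15 drew the tables and figures.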

Additional observations from a re-analysis of the deposited data

How the results depend on the processing

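Between triploid and diploid clones 400 features were called, against 103 with no filter on dim probes, 81 with slide as a block, 219 with clone number as a replicate block and 226 with the pair of groups fitted alone. Leaving out 1 clone gave 64 to 1646, or 27 to 707 with the filter dropped too, an alternative chosen after seeing the data; the count was 1646 without triploid clone 1, 64 and 78 without triploid clones 2 and 3, 155 without tetraploid clone 1 and 98, 195 and 145 without diploid clones 1, 2 and 3. Between tetraploid and diploid clones 16 were called, against 97 when scaled to probes detected on all arrays, 5 with quantile normalization, 9 with normexp, 30 with the pair alone and 0 with no filter, slide as a block or the replicate block; leaving out 1 clone gave 0 to 113, the highest without diploid clone 3. Between triploid and tetraploid clones 589 were called, against 198 with no filter, 284 with slide as a block and 465 with the replicate block; leaving out 1 clone gave 38 (filter dropped, without triploid clone 2) to 1616 (without triploid clone 1), with 1001 without tetraploid clone 2. Scaling to probes detected on all arrays moved the median difference of all features between triploid and diploid clones to -0.05, against 0.10, and the higher calls to 119 of 558, against 134 of 400. The cause of these shifts was not tested. Dropping the filter also raised the number of features tested to 49222, and leaving out a clone removed a sample.

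Most alternatives tested 4 of the 10 genes; those with the filter dropped and the omission of triploid clone 1 tested all 10, and the omission of diploid clone 3 tested 6. None of the genes tested was called except without triploid clone 1, so the count was 0 to 7 over the omissions in triploid against diploid and triploid against tetraploid clones. The genes with their widest step below triploid clones 2 and 3 numbered 7 under each other scaling. Among the 4 genes in the fit of all 9 clones, signs turned in uncalled differences only: Gata5 in triploid against diploid clones was -0.016 when scaled to probes detected on all arrays and -0.029 to 0.29 over the omissions, Gata6 in tetraploid against diploid clones -1.17 to 0.36, Tbx18 there -0.56 to 0.10, and Msln in triploid against tetraploid clones -1.15 to 0.50. Of the dark genes, with the filter dropped, the tetraploid minus diploid difference turned to 0.27 for Gata4 without tetraploid clone 3 and to 0.31 for Upk3b and 0.06 for Scel without diploid clone 1, all uncalled. Of the 16 calls among the listed genes, 6 held in every fit that leaves a clone out and 10 were lost in at least 1, with a highest adjusted p of 0.0858 to 0.152: omitting triploid clones 1, 2 and 3 in turn lost 0, 10 and 8, tetraploid clones 9, 3 and 5, and diploid clones 8, 5 and 6. Deviations of clones with the same number correlated between -0.13 and 0.09 across groups, so the numbers were not taken as pairs, and the replicate block called none of the 4 genes it tested.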

Other observations

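Some regulators outside the 10 genes were picked out after their values were seen, because they stood out in triploid clones 2 and 3. Most of those shown were high there, and how many regulators were low there was not counted. Foxa2, a forkhead factor of endoderm, was at -5.73, 3.66 and 3.12 in triploid clones 1, 2 and 3, against -5.70, -5.45 and -1.42 in tetraploid clones and -3.86, -3.33 and -3.95 in diploid clones 1, 2 and 3. Zfpm1, a cofactor of GATA factors, was at 1.42, 3.92 and 4.19 in triploid clones 1, 2 and 3, against 1.84, 2.23 and 1.73 in tetraploid clones and 1.45, 1.95 and 1.40 in diploid clones 1, 2 and 3. Tcf23, a relative of Tcf21, was well above background in triploid clones 2 and 3 alone, at 0.68 and 0.06. Podxl, the podocyte and mesothelial sialomucin, was likewise well above background in those clones alone, at -1.71 and -1.49. Tbx20, a T-box factor of the heart, was at 1.35 and 0.60 in triploid clones 2 and 3, against -3.53 in tetraploid clone 3, the third clone in which it was well above background. Tbx3, another T-box gene, went the other way. It was dark in triploid clones 2 and 3, at -5.80 and -5.61, and well above background in the other 7 clones. Foxc2 was at -2.67 and -0.24 in triploid clones 2 and 3 and between 1.35 and 2.61 in the other clones.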
